A study of Mus musculus with 6 samples.

Results

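Most of the genes described here encode enzymes and a carrier that take long-chain fatty acids into the mitochondrion and break them down there. Hsdl2 is grouped with these, and its substrates are less well defined. All were read in the ventricles of newborn mice lacking miR-125b-1 in cardiomyocytes. The 6 genes are Cpt2, Slc25a20, Acaa2, Hadhb, Decr1 and Hsdl2, of 215 named genes in the table of intensities analysed here. All rows annotated to them were kept, which gave 7 of the 271 probe sets. In the table Decr1 has a pair of probe sets and each other gene has 1. Any further probe set of these genes on the array that differed by less would be missing from the table and was not read. A probe set is a group of short probes on the array that reads 1 transcript or several similar ones. The genes were chosen by their measured difference between knockout and wild-type on these same arrays, so that difference is given as a description and is not tested. The table itself holds only probe sets that differ by at least 1.00 on the log2 scale between the groups, in either direction.

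Ventricles were taken at postnatal day 1 from 2 groups of mice, with 3 arrays per group. Wild-type mice had the genotype aMHC-Cre; 125b1+/+ and knockout mice aMHC-Cre; 125b1f/f. Both groups thus carried the same Cre recombinase, driven by the promoter of the cardiac α-myosin heavy chain gene, which is active in cardiomyocytes. Other cells of the ventricle keep their miR-125b-1, and all mice keep miR-125b-2. The paper reports that the primary miR-125b-1 transcript was almost lost in neonatal ventricles, and takes cardiomyocytes as its main source. Whether an array holds 1 pup or several is not stated, so the spread between arrays may be partly technical.

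Long-chain fatty acids are the main fuel of the adult heart, and the heart turns to them around birth. They are activated to acyl-CoA, coupled to carnitine, carried through the inner mitochondrial membrane and returned to acyl-CoA inside. The chain is then shortened by rounds of dehydrogenation, hydration, a second dehydrogenation and cleavage by a thiolase. Chains with double bonds need further enzymes before they can enter these rounds.

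The mature microRNA from the deleted locus is shown first because deletion of that locus defines the knockout. The microRNA lies at chr9:41581940-41581961 on the plus strand (RefSeq, GRCm38.p6). The same 22 bases are also made from miR-125b-2, which the knockout does not delete. The paper reports that mature miR-125b was lower in knockout neonatal ventricles, with some remaining. Capitals mark the seed, bases 2 to 8.
mmu-miR-125b-5p: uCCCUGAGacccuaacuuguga

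Promoter windows in the RefSeq table of the same build cover 250 bases before and 50 bases after the start of a transcript. They are shown as a description only, since being lower together is how the genes were chosen. Windows of 4 of the 6 genes, Cpt2, Slc25a20, Hadhb and Hsdl2, are printed. No window was found for Decr1 and that of Acaa2 was not examined, so the counts below leave both out. Capitals mark each GC box, GGGCGG on either strand.
Cpt2, chr4:107923540-107923839, minus strand: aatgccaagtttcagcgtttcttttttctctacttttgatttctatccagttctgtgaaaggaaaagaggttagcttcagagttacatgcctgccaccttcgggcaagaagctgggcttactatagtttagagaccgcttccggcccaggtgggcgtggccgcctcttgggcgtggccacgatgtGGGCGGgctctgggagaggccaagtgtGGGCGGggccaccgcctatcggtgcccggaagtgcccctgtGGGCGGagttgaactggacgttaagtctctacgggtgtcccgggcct
Slc25a20, chr9:108661886-108662185, plus strand: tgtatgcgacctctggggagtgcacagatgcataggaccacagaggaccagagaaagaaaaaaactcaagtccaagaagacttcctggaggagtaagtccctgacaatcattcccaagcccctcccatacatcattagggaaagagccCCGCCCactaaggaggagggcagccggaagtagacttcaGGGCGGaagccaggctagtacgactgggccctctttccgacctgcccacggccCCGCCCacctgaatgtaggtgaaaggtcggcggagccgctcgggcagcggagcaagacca
Hadhb, chr5:30155003-30155302, plus strand: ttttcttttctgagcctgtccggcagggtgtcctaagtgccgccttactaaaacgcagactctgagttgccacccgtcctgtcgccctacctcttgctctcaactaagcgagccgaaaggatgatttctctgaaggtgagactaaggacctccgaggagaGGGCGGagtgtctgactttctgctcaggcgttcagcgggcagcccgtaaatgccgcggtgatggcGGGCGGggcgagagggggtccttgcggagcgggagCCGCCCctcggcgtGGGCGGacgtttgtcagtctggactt
Hsdl2, chr4:59581313-59581612, plus strand: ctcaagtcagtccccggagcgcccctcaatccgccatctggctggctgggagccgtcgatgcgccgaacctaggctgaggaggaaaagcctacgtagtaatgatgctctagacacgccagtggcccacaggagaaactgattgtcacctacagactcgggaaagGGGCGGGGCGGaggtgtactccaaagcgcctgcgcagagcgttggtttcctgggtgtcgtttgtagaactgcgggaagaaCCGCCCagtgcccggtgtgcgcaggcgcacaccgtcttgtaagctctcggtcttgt

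All 4 windows hold at least 3 GC boxes, and Hadhb holds 4. In Hsdl2 the pair at -86 and -81 shares 1 base. The GC box was picked after the sequences were seen, and 46.2% of 21263 windows of protein-coding genes (35.7% of all 32851 windows) hold at least 1, and 14.7% of the coding windows hold 3 or more. The windows are 57.3 to 60.7% G and C, against a median of 56.3% over protein-coding genes. None of the 4 windows holds the nuclear receptor hexamer AGGTCA on either strand, which 14.7% of coding windows do. It follows that none holds an exact copy of the longer motifs built on it. These are the PPAR element AGGTCANAGGTCA, in 0.0470% of coding windows, and the ERR element TCAAGGTCA, in 0.334%. Only exact letters were searched, and sites that depart from them were not counted. Whether the windows hold such variant PPAR or ERR sites was not tested. The Hadhb window starts 23 bases beyond the start of Hadha, which encodes the partner subunit of its enzyme and is read in the opposite direction. The 2 transcription starts are 273 bases apart. Hadha itself is not analysed here.

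**Figure D1:**
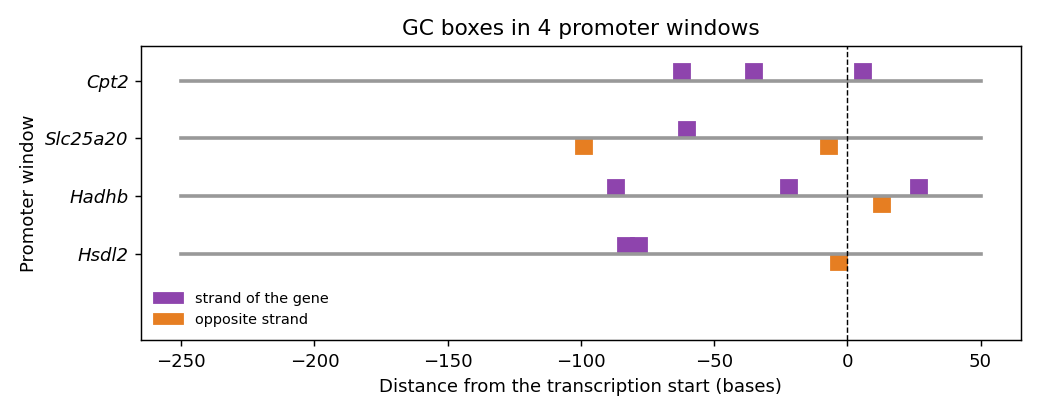
Positions of GC boxes (boxes above the line: strand of the gene; below: opposite strand) in the 4 promoter windows, with distance from the transcription start in bases on the x axis and 1 line per gene. Each window holds 3 or 4 boxes, all between -102 and 29.

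All 7 probe sets were lower in the knockout neonatal ventricles. In each of them the 3 knockout arrays were below the 3 wild-type arrays. Over the 6 genes, each represented by its brightest probe set, the median log2 difference was -1.28, which leaves 41.2% of the wild-type intensity. The median over all 271 probe sets was 1.18, because most of the table is higher in the knockout. Of the whole table, 88 probe sets were at least 2-fold lower, which is 32.5%, and the same 32.5% had all knockout arrays below all wild-type arrays. Over these 88, the median ratio of the dimmest wild-type to the brightest knockout array was 2.13. The ratios of the 7 probe sets ran from 2.06 to 5.31. With limma, 100% of the table had an adjusted p under 0.05, which follows from how the table was drawn. Nothing about the 6 genes can be read from these counts, since they were chosen on this contrast. In whole ventricles, fewer cells that express a gene and less RNA per cell cannot be told apart.

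**Figure D2:**
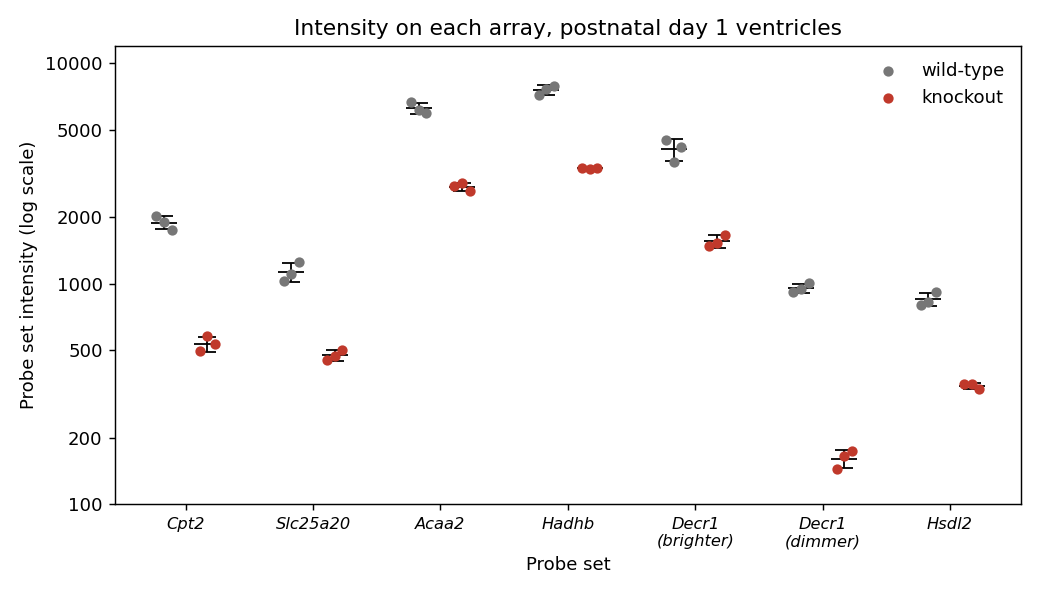
Intensity (log scale) of the 7 probe sets on each of the 3 wild-type arrays (grey) and 3 knockout arrays (red), with group means and SDs in black. The groups are apart in every probe set, and the widest gap is in the dimmer probe set of Decr1, at 956 in the wild-type and 161 in the knockout. Heights of different probe sets are not comparable.

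The carnitine shuttle is represented by Cpt2 and Slc25a20. Cpt2 encodes carnitine palmitoyltransferase 2 of the inner mitochondrial membrane, which turns acylcarnitine back into acyl-CoA. Its gene lies on chromosome 4 at 107903982 to 107923589. Intensities of Cpt2 were 2020.4, 1903 and 1759.5 on the wild-type arrays and 493, 577 and 531 on the knockout arrays. The dimmest wild-type array was 3.05 times the brightest knockout array. The means were 1894 ± 131 in the wild-type and 534 ± 42.0 in the knockout (SD, n = 3 each). This is a 3.55-fold lower level, or a log2 difference of -1.83 with a standard error of 0.11 from limma. Among the brightest probe sets of the 6 genes, Cpt2 had the largest difference.

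Slc25a20 encodes the carrier that exchanges acylcarnitine for carnitine through the inner membrane, the step just before Cpt2. It lies on chromosome 9 at 108662136 to 108684642, the chromosome of miR-125b-1 but far from it. Its intensities were 1033, 1106 and 1254 in the wild-type and 448, 469 and 501 in the knockout. The knockout arrays lay close together, and the brightest of them was still below the dimmest wild-type array. The means were 1131 ± 113 and 473 ± 26.6 (SD, n = 3 each), a 2.39-fold lower level. The log2 difference was smaller than that of Cpt2 by 0.573 on the log2 scale, with a standard error of this gap of 0.154. The name of its probe set ends in _s_at, so its probes match several transcripts.

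The last step of each round is represented by a pair of thiolases. Acaa2 encodes the mitochondrial 3-ketoacyl-CoA thiolase that acts on shorter chains, and lies on chromosome 18 at 74779212 to 74806207. Its intensities were 6668, 6139 and 5939 in the wild-type and 2775, 2859 and 2627 in the knockout. The groups were 2.08-fold apart at their closest arrays. The means were 6249 ± 377 and 2754 ± 118 (SD, n = 3 each), which is 2.27-fold lower. As for Slc25a20, the single probe set in the table is of the _s_at kind.

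Hadhb encodes the β-subunit of the mitochondrial trifunctional protein, which carries the thiolase for long chains, and lies on chromosome 5 at 30155253 to 30184593. Its intensities were 7171, 7624 and 7928 in the wild-type and 3345, 3313 and 3358 in the knockout. The 3 knockout arrays differed by very little, with a coefficient of variation of 0.687%, against 5.03% among the wild-type arrays. The means were 7574 ± 381 and 3339 ± 22.9 (SD, n = 3 each), a 2.27-fold lower level. The log2 difference was -1.18 for both thiolases as deposited, with a standard error of the gap of 0.101.

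Decr1 encodes the mitochondrial 2,4-dienoyl-CoA reductase, which prepares polyunsaturated chains for the rounds of oxidation. It lies on chromosome 4 at 15917240 to 15945377. Its brighter probe set read 4483, 3553 and 4175 in the wild-type and 1476, 1532 and 1668 in the knockout. This probe set had the widest spread of the 7 among wild-type arrays, with a coefficient of variation of 11.6%. The means were 4071 ± 474 and 1559 ± 98.9 (SD, n = 3 each), a 2.60-fold lower level. The dimmer probe set read 921, 941 and 1005 in the wild-type and 144, 165 and 173 in the knockout. These means were 956 ± 43.9 and 161 ± 15.3 (SD, n = 3 each). The 5.96-fold lower level was the largest difference of the 7 probe sets.

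The pair of Decr1 probe sets therefore gave the same direction and different sizes. The brighter one kept 36.3, 37.6 and 41.0% of its wild-type mean on the knockout arrays, and the dimmer one 15.0, 17.2 and 18.1%. The gap between their log2 differences was -1.20, with a standard error of 0.115. Both are annotated to the same gene, and which part of its transcript each probe set reads was not examined.

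Hsdl2 encodes a protein of the short-chain dehydrogenase family with a sterol carrier domain, whose substrates are less well defined than those of the other 5. It lies on chromosome 4 at 59581517 to 59618694. Its intensities were 804, 830.2 and 915 in the wild-type and 351, 349 and 331 in the knockout. The dimmest wild-type array was 2.29 times the brightest knockout array. The means were 849.8 ± 57.8 and 344 ± 11.0 (SD, n = 3 each), which is 2.47-fold lower.

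As deposited, the log2 differences of the brightest probe sets, from the largest, were -1.83 for Cpt2, -1.38 for Decr1, -1.30 for Hsdl2, -1.26 for Slc25a20, and -1.18 for Acaa2 and Hadhb. Cpt2 was 0.449 beyond Decr1, with a standard error of the gap of 0.125. The gaps between later neighbours in this order were smaller than their standard errors. Sorting makes such gaps small, and they are a description of genes already chosen on the contrast. The other 5 genes spanned 0.200 as deposited and 0.580 after quantile normalization, where the lead of Cpt2 was 0.279.

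Among the 88 lower probe sets, ranked from the largest difference, the dimmer probe set of Decr1 stood at 4 and Cpt2 at 11. The brighter probe set of Decr1, Hsdl2 and Slc25a20 stood at 39, 46 and 52, and Acaa2 and Hadhb at 68 and 69. The median log2 difference of the lower probe sets that belong to none of the 6 genes was -1.32, beside -1.28 for the 6 genes, whose ranks were spread from 11 to 69.

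**Figure D3:**
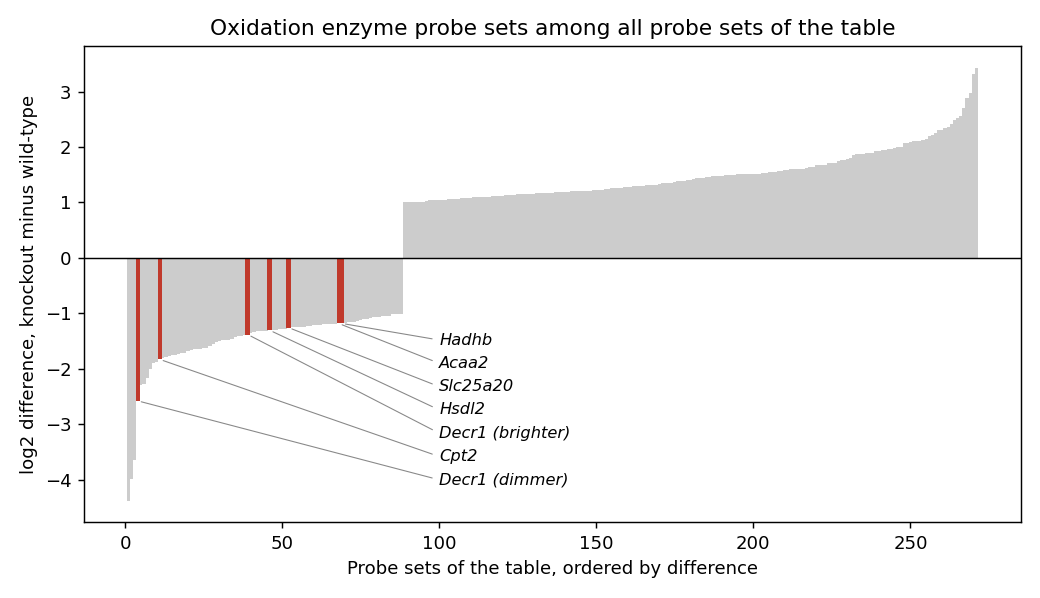
The log2 difference between knockout and wild-type (y axis) for all 271 probe sets of the table in order of size (x axis), with the 7 probe sets of the oxidation enzymes in red and the others in grey. The red bars run from -2.58 for the dimmer probe set of Decr1 to -1.18 for Hadhb, and no bar is shorter than 1.00 because the table is selected.

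The spread between arrays of a group was small beside these differences. Coefficients of variation over the 7 probe sets were 4.59 to 11.6% in the wild-type, with a median of 6.80%, and 0.687 to 9.54% in the knockout, with a median of 5.62%. The medians over the whole table were 8.91% and 8.54%. No single array was high or low throughout. Among the wild-type arrays, replicate 1 was the brightest for 3 of the probe sets (Cpt2, Acaa2 and the brighter one of Decr1) and replicate 3 for the other 4. Among the knockout arrays, replicate 3 was the brightest for 4 probe sets, replicate 2 for 2 and replicate 1 for 1. Without any 1 array, all 7 probe sets stayed at least 2-fold lower. So did most of the lower probe sets of the whole table, with 83 to 88 at least 2-fold lower against 88 on all arrays.

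The size of the differences depends on how the arrays are scaled. Between the groups, the median log2 intensity of the whole table was 0.54 higher on the knockout side, and no unchanged probe sets are at hand to set the zero. With each array centred on its median, the log2 differences of the brightest probe sets ran from -2.37 for Cpt2 to -1.72 for Hadhb and Acaa2. After quantile normalization Cpt2 was at -2.33 and Acaa2 at -1.48. Hadhb, which had the smallest difference as deposited, moved to -2.06 and then stood next to Cpt2. The direction and the place of Cpt2 as the gene with the largest difference were the same under the 3 scalings, and the order of the other genes was not. Centring lowers every difference by the same 0.54, so of the 2 rescalings only quantile normalization could change this direction or order.

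**Figure D4:**
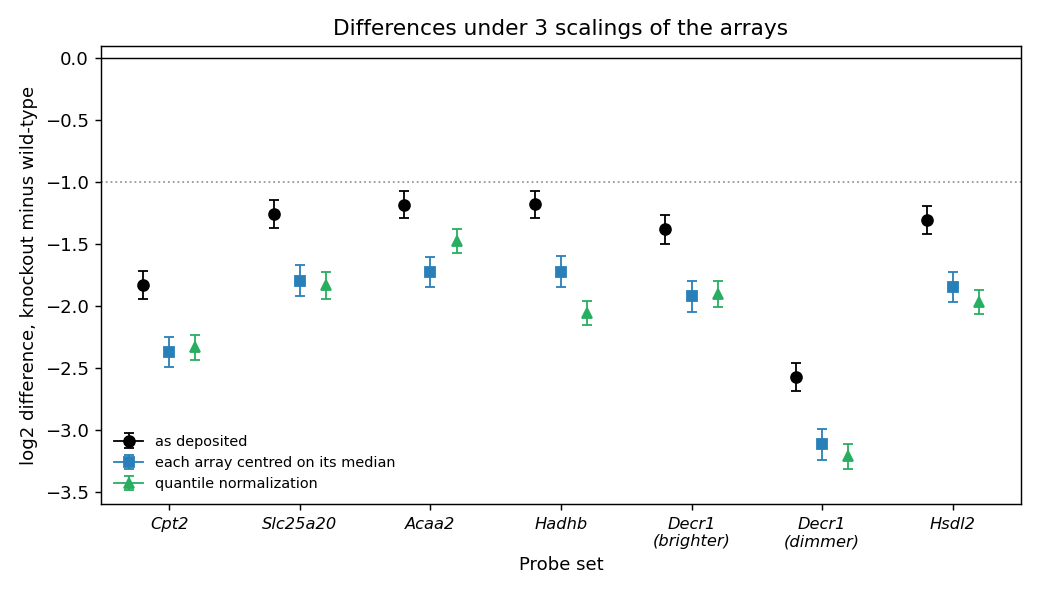
Log2 difference between knockout and wild-type (y axis) of each probe set (x axis) as deposited (black circles), with each array centred on its median (blue squares) and after quantile normalization (green triangles), with standard errors from limma as bars and a dotted line at a 2-fold lower level. All points lie below the line, and Hadhb and Acaa2 part under quantile normalization, at -2.06 and -1.48.

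The wider pathway was followed through gene lists. Of 47 genes in the 4 lists for the carnitine shuttle, the activation and release of acyl-CoA, the rounds of mitochondrial oxidation, and the auxiliary enzymes with electron transfer, 6 are in the table, and they are the 6 described above. They fall as 2 of 8 genes of the shuttle, 2 of 16 of the rounds of oxidation, 2 of 8 of the auxiliary enzymes and 0 of 15 of the synthetases and thioesterases. Hsdl2 was counted with the auxiliary enzymes, although its substrates are less well defined. None of 36 genes of peroxisomal oxidation, ketone body metabolism and the citrate cycle is in the table. The listed genes outside the table are not analysed here, and no statement on whether they changed can be made. Of 20 regulators of oxidation genes, Klf15 is in the table. It encodes a transcription factor of cardiac lipid metabolism and was higher, at 709, 719 and 824 in the knockout against 127, 109.8 and 148 in the wild-type, a 5.87-fold difference. Its log2 difference of 2.55 was 1.92 after quantile normalization.

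Of 25 genes of fatty acid uptake, lipid droplets and lipolysis, 6 are in the table. Cd36, Angptl4, Plin5 and Cidea were lower and Plin3 and Pnpla2 were higher, in a table of which 32.5% of the probe sets were lower, and the other 19 genes are not analysed here. Cd36, which takes fatty acids into the cell, was 2.09-fold lower, beside 2.27-fold for Acaa2 and Hadhb. Plin5, which ties lipid droplets to mitochondria, was 3.42-fold lower on its brighter probe set, beside 3.55-fold for Cpt2. The log2 difference of Plin3, a droplet coat protein, was 1.04 as deposited and 0.34 after quantile normalization, and that of the triglyceride lipase Pnpla2 was 1.47 and 0.70. No direction of these 6 genes changed under either scaling.

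Markers of cell types could be checked only where they are in the table. Of 11 markers of ventricular cardiomyocytes, Myh7 (β-myosin heavy chain) is the single one in it, and it was 10.8-fold higher in the knockout, a log2 difference of 3.43 that was 2.54 after quantile normalization. Myh7 is also a known marker of cardiac stress and cannot serve here as a check of cell type, and the other 10 are not analysed here. Of 6 fibroblast markers, Col3a1 was 2.14-fold lower, and of 7 adipocyte markers, Cidea was 3.38-fold lower, at 671 to 698 in the wild-type and 193 to 223 in the knockout. After quantile normalization their log2 differences were -1.73 and -2.38, against -1.10 and -1.76 as deposited. None of the 5 endothelial, 3 smooth muscle, 4 erythroid and 4 leukocyte markers is in the table. The part of a shift in cell types in the lower oxidation genes was not tested.

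Other genes with a similar profile were sought by the root mean square distance, over the 6 arrays, between the log2 profile of a gene and the mean profile of the 6 oxidation genes, each set against its wild-type mean. The closest 5 outside the 6 were Sertad4, Hspa4, 1810055G02Rik, Dysf and Idi1, at distances of 0.080 to 0.094. Hspa4 encodes a heat shock protein of the HSP110 family, Dysf the membrane repair protein dysferlin, and Idi1 an isomerase of the sterol pathway. Among the 6 genes themselves, Hsdl2 was the closest to their mean profile, at 0.071. The distance mostly reads the size of the difference between the groups, since arrays of a group differed little. Of the 215 named genes of the table, 13 lie on chromosome 4, and 3 of these are Cpt2, Decr1 and Hsdl2. Nothing can be read from this count, since the 6 genes were chosen with their values known.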

How the data were processed

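RNA from the ventricles of 3 wild-type and 3 knockout samples was hybridised to Affymetrix Mouse Genome 430 2.0 arrays. The values deposited are linear intensities, 1 per probe set and array, which the authors analysed in GeneSpring GX 11.5. Summarization and normalization are not given in the sources used here. Gene names came from GEO's platform table and were updated by gene number to RefSeq (GRCm38.p6) for all 253 probe sets with 1 gene. Intensities were set to log2 with no pseudocount and no filter. All 271 probe sets entered 1 fit of knockout against wild-type with limma 3.58.1 in R 4.3.3, with Benjamini-Hochberg adjustment. The fit was tested on simulated data. Its standard errors rest on a selected table, which may understate them. Counts, gaps and motif searches used Python 3.11.15, pandas 2.3.3 and SciPy 1.17.1. The genes, lists and the rule for named genes (the 6 genes, every listed gene in the table, and the 5 closest profiles) were chosen with earlier results of these data known. The number of arrays limits the precision. Alternatives were 2 other scalings, a pseudocount of 16, leaving out the dimmest 25% of probe sets, each array in turn, or probe sets with shared probes, the mean over a gene's probe sets, and a replicate block. Protein sequences were not used here.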

Additional observations from a re-analysis of the deposited data

How the results depend on the processing

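All 7 probe sets kept their direction and stayed at least 2-fold lower under every alternative that was run on them. For centring on the median this was fixed beforehand, since it lowers every difference by the same 0.54. Scaling moved the sizes by more than the spread between arrays. With each array centred on its median, the log2 differences were -2.37 for Cpt2, -1.80 for Slc25a20, -1.72 for Acaa2, -1.72 for Hadhb, -1.92 and -3.12 for the brighter and dimmer probe sets of Decr1, and -1.85 for Hsdl2, with a median of -1.82 over the genes. After quantile normalization they were -2.33, -1.83, -1.48, -2.06, -1.90, -3.21 and -1.97 in the same order, with a median of -1.94. The table offers no unchanged probe sets to set the scale. Both rescalings force the arrays to the same centre, in a table with 183 higher and 88 lower probe sets. The larger falls they gave are therefore not better estimates than the deposited ones. A pseudocount of 16 moved the dimmer probe set of Decr1 to -2.46. It left 75 probe sets of the table at least 2-fold lower, against 88.

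Leaving out each array in turn gave log2 differences of -1.89 to -1.77 for Cpt2, -1.32 to -1.18 for Slc25a20, -1.22 to -1.13 for Acaa2, -1.22 to -1.15 for Hadhb, -1.47 to -1.31 and -2.63 to -2.50 for Decr1, and -1.34 to -1.25 for Hsdl2. The median over the genes ran from -1.31 to -1.23, and 83 to 88 probe sets of the table were at least 2-fold lower. Without the probe sets that end in _s_at, the median over the genes was -1.34. With the replicate number as a block (replicate block), the median was -1.28, which a balanced design fixes, and the standard errors of the 7 probe sets were 0.081 to 0.103 in place of 0.111 to 0.117. Deviations of same-numbered arrays from their group means had correlations of -0.016, 0.007 and 0.085 over the probe sets. Those of differently numbered arrays ran from -0.153 to 0.122. Same-numbered arrays thus did not stand out, and whether the numbers pair the arrays cannot be told from this selected table.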
